A study of Homo sapiens with 9 samples.

Results

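Expression of 10 genes that encode serine proteases of the epithelial cell surface and their inhibitors was followed in a lung adenocarcinoma line and in its ponatinib-resistant derivatives. The genes were taken by symbol: ST14, PRSS8, TMPRSS2, TMPRSS4, TMPRSS11E, HPN, PRSS22 and PRSS23 encode proteases, and SPINT1 and SPINT2 encode inhibitors. All 10 had a row of their own among the 24069 rows of the deposited table, and 8 of them passed the filter on low values, at or above 1 FPKM in 3 or more of 9 libraries. FPKM are fragment counts divided by transcript length and by the library's mapped fragments, so levels of different genes can be set side by side roughly. This holds only where a row could be estimated, which may fail for single genes, as described below for YTHDC1. The libraries came from the derivatives PR2 and PR1, both cultured in 200 nM ponatinib, and from parental LC-2/ad cells (LC2), with 3 libraries per group lettered A, B and C. LC-2/ad is an established line of human lung adenocarcinoma that carries a CCDC6-RET gene fusion, shared by all 3 groups, and ponatinib is a drug that inhibits several kinases, RET among them. The comparison asks how the lines that grow in the drug differ from the line they came from. The labels state no drug for parental cells, and therefore effects of being resistant and of growing in drug cannot be told apart. Whether letters stand for separate cultures is not in the labels, so the p-values below reflect library-to-library spread alone, possibly a technical one. Each derivative is a single line, so a difference between PR2 and PR1 is one between these lines.

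Serine proteases of this family are made as inactive precursors and are switched on by a cut at 1 site, often by another protease of the same membrane. Matriptase, encoded by ST14, and prostasin, encoded by PRSS8, act on each other at epithelial surfaces. The Kunitz-type inhibitors HAI-1 (SPINT1) and HAI-2 (SPINT2) span the same membrane and block them. TMPRSS2, TMPRSS4, TMPRSS11E and hepsin (HPN) are transmembrane proteases like matriptase, whereas prostasin is held by a lipid anchor. PRSS22 and PRSS23 encode secreted enzymes, so the group's shared name describes them loosely. In airway epithelium these enzymes are known for processing of sodium channel subunits, growth factor precursors, adhesion molecules and viral spike proteins. FPKM measure RNA, and the activity of these enzymes was not measured here.

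The libraries held between 11263 and 11629 rows at 1 FPKM or more, and no pair of libraries was identical. FPKM keep no absolute depth. Steps of single fragments in low genes gave depths of 0.763 to 1 relative to parental A. All 7 epithelial markers (EPCAM, KRT7, KRT8, KRT18, KRT19, CDH1, NKX2-1) were at 1 FPKM or more in all 9 libraries, with summed levels of 6862 to 8864 FPKM in PR2, 4881 to 7223 FPKM in PR1 and 5476 to 6534 FPKM in parental cells. KRT18 was low, at 2.34 to 8.17 FPKM, beside KRT8 at 1544 to 2622 FPKM. Whether the KRT18 row was fully estimated was not tested. Of 6 fibroblast markers 1, COL1A1, was at 1 FPKM or more in all 9 libraries, and the list summed to between 3.64 and 10.8 FPKM. Of 6 blood cell markers, CD68 lay in a row joined with other genes and could not be judged. None of the 5 with a row of their own was at 1 FPKM or more in all 9 libraries. These summed to 0.716 to 1.08 FPKM in PR2, 1.22 to 1.74 FPKM in PR1 and 3.48 to 9.16 FPKM in parental cells, of which CD14 made up most. CD14 was called lower than in parental cells, by -1.86 in PR2 (adjusted p = 0.00071, limma) and by -1.55 in PR1 (adjusted p = 0.0033), and its part in the results below was not tested. In bulk RNA, fewer cells with a transcript and less transcript per cell cannot be told apart.

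Promoter sequence was at hand for 4 of the 10 genes in the RefSeq table of GRCh38.p14. The windows of SPINT1 and PRSS23 are shown because these genes passed the test in opposite directions in PR2. Each runs from 250 bases before to 50 bases after a RefSeq start on the plus strand, at chr15:40843798-40844097 for SPINT1 and at chr11:86800292-86800591 for PRSS23. Capitals mark a match to TGANTCA, the letters searched for AP-1.
SPINT1: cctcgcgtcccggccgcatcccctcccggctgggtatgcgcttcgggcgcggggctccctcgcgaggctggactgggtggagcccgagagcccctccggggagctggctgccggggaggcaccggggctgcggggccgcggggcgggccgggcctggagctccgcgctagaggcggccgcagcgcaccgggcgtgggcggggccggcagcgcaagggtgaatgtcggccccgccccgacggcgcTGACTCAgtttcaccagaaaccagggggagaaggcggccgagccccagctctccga
PRSS23: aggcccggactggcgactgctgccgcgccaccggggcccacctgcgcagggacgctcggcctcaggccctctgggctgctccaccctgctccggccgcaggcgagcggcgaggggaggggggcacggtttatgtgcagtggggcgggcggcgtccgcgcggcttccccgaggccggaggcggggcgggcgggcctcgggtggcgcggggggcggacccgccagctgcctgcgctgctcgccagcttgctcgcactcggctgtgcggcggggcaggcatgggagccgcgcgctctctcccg
The SPINT1 window held 1 such match, beginning at base 245 of the window, and the PRSS23 window held none, as did the second window that the table lists for either gene. On both strands, 7.71% of all 35116 promoter windows in the table held TGANTCA, 14.03% held the TEAD letters GGAATG and 1.73% held the GRHL letters AACCNGTT. Neither window shown held the TEAD or the GRHL letters, which says only that they are not in these windows.

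In PR2 cells, TMPRSS4 and TMPRSS2 RNA fell steeply relative to parental cells, SPINT1 fell moderately and PRSS23 rose. The calls of SPINT1 and PRSS23 were fragile, held under 8 and 9 of 16 alternative settings. In PR1 cells TMPRSS4 alone passed the test, and it fell. ST14 and SPINT2, matriptase and HAI-2, passed in no comparison. Groups were compared with limma on log2(FPKM + 1), with p-values adjusted by the Benjamini-Hochberg method over the 12011 rows tested, and a gene was called at an adjusted p under 0.05. PR2 against parental cells gave 4 called genes among the 8 tested, 1 higher and 3 lower, where 23.4% of all rows tested were called, 13.6% higher and 9.83% lower. PR2 against PR1 gave 3, of which 1 was higher and 2 lower, where 19.9% of all rows were called, 11.0% higher and 8.92% lower. PR1 against parental cells gave 1, lower, where 15.5% of all rows were called, 7.56% higher and 7.98% lower, so that the count of the 8 genes was near the background. The median log2 fold change of the 8 genes was -0.44, -0.43 and -0.02 in these comparisons, beside 0.03, 0.00 and 0.05 over all rows tested. TMPRSS2 passed the filter only through its levels in PR1 and parental cells, so the filter favoured a lower level in PR2. Quantile normalization or division by the upper quartile moved the median of all rows by less than 0.1 on the log2 scale in each comparison.

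**Figure D1:**
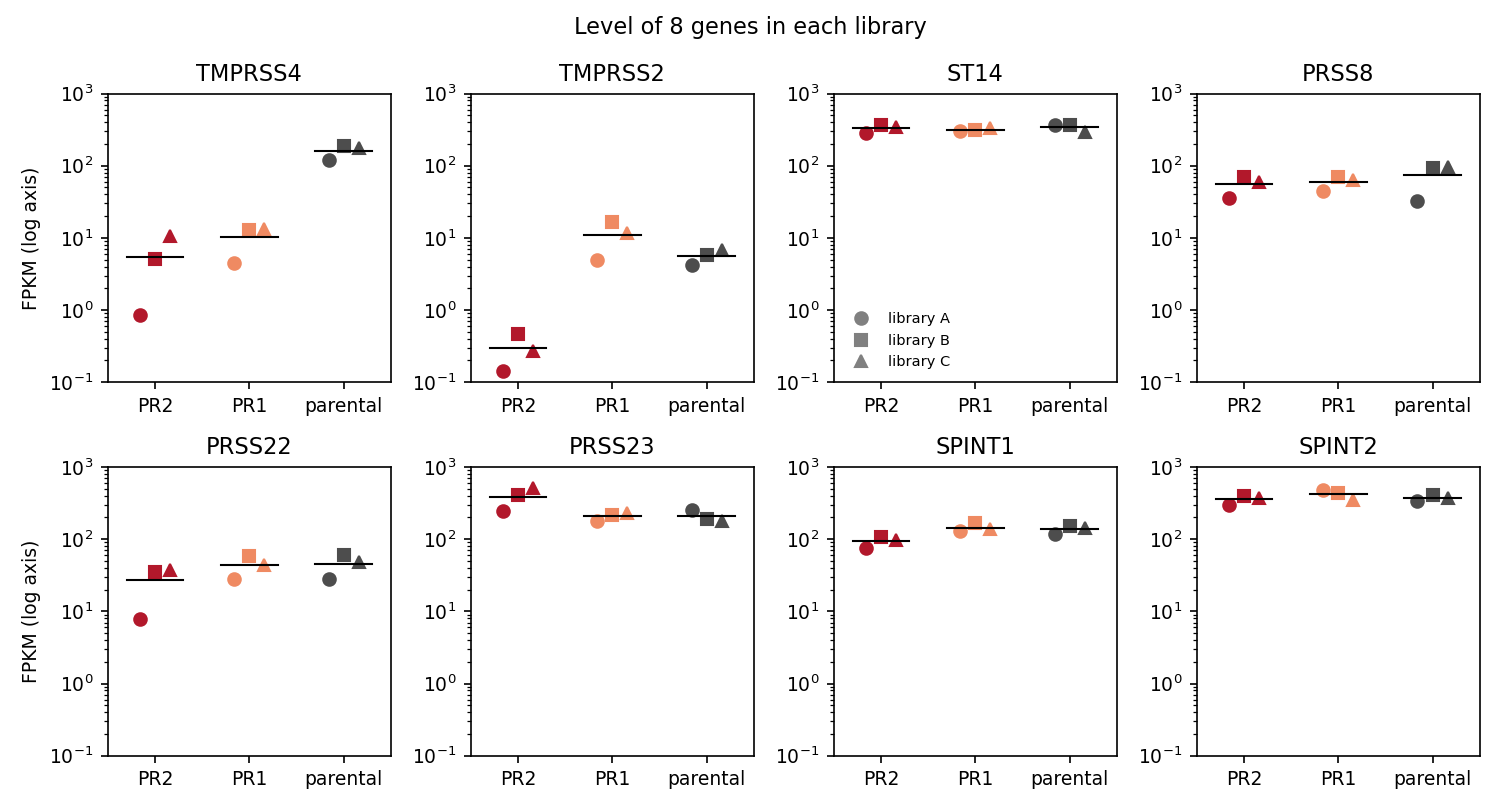
FPKM of the 8 tested genes in each of the 9 libraries, on a log axis, with PR2, PR1 and parental cells from left to right and the letter of each library shown by its symbol and the group mean by a line. TMPRSS4 lies between 120 and 186 FPKM in parental cells and at or under 13.3 FPKM in both derivatives, and TMPRSS2 lies under 0.5 FPKM in PR2 alone, while ST14 and SPINT2 overlap between all groups.

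TMPRSS4 encodes a transmembrane protease described in carcinomas of the pancreas and lung. Its level was 0.85, 5.08 and 10.6 FPKM in PR2 libraries A, B and C, 4.50, 12.6 and 13.3 FPKM in PR1, and 120, 186 and 175 FPKM in parental cells. Every derivative library lay below every parental library, and PR2 and PR1 overlapped. TMPRSS4 averaged 5.51 ± 4.88 FPKM in PR2, 10.1 ± 4.89 FPKM in PR1 and 160 ± 35.5 FPKM in parental cells (SD, n = 3 each), 29.1-fold lower in PR2 and 15.8-fold lower in PR1 than in parental cells. Its log2 fold change was -4.97 ± 0.59 (SE) in PR2 (adjusted p = 0.00029, limma) and -3.95 ± 0.59 in PR1 (adjusted p = 0.0019). It was lower within each of the 3 letters in both comparisons, and both calls held under all 16 alternative settings. Between PR2 and PR1 its difference of -1.01 ran over an interval of -2.33 to 0.30 (adjusted p = 0.26, limma), and with the library letter as a block it passed, at an adjusted p of 0.043. It was -0.29 without PR2 A (adjusted p = 0.68) and -0.73 without the A libraries of all groups (adjusted p = 0.11), and neither was called. TMPRSS4-AS1, an overlapping antisense row, was listed at 0 in all 9 libraries, and the strand setting of the counting is not given in the sources used here.

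TMPRSS2 encodes an androgen-regulated protease of airway and prostate epithelium that cleaves viral spike proteins. It was at 0.145, 0.472 and 0.274 FPKM in PR2 libraries A, B and C, at 4.86, 16.6 and 11.6 FPKM in PR1, and at 4.20, 5.83 and 6.82 FPKM in parental cells. PR2 lay below both other groups without overlap, whereas PR1 and parental cells overlapped. Mean levels were 0.297 ± 0.165 FPKM in PR2, 11.0 ± 5.90 FPKM in PR1 and 5.61 ± 1.32 FPKM in parental cells (SD, n = 3 each). The ratio of means was 37.1-fold lower in PR2 than in PR1 and 18.9-fold lower than in parental cells, more than the log2(FPKM + 1) scale shows for so low a gene. On that scale PR2 differed from PR1 by -3.08 ± 0.34 (adjusted p = 0.00028, limma) and from parental cells by -2.34 ± 0.34 (adjusted p = 0.00096, limma). Both calls held under all 16 alternatives. In the main fit the gene passed the filter only through PR1 and parental cells, so the filter favoured a lower level in PR2. PR1 against parental cells gave 0.74 with an interval of -0.02 to 1.51 (adjusted p = 0.18, limma). With the library letter as a block this difference passed at an adjusted p of 0.0497. It passed also without PR1 library A, at 1.19 (adjusted p = 0.011), and without the A libraries of all 3 groups, at 1.03 (adjusted p = 0.015). Without PR1 library B it was 0.40 (adjusted p = 0.45).

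ST14, the gene of matriptase, was among the higher genes of these cells, above 98.1% of the rows tested in PR2, 97.9% in PR1 and 98.0% in parental cells by its group mean. It stood at 287, 370 and 346 FPKM in PR2 libraries A, B and C, at 297, 307 and 337 FPKM in PR1, and at 367, 364 and 292 FPKM in parental cells. All groups overlapped. Its difference from parental cells was -0.03 (interval -0.39 to 0.34, adjusted p = 0.92) in PR2 and -0.11 (interval -0.48 to 0.25, adjusted p = 0.69) in PR1 by limma, and PR2 differed from PR1 by 0.09 (interval -0.28 to 0.45). None of the 16 alternatives called ST14 in any comparison.

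PRSS8, the gene of prostasin, was at 35.8, 69.7 and 60.1 FPKM in PR2 libraries A, B and C, at 44.7, 70.7 and 62.6 FPKM in PR1, and at 32.3, 92.2 and 95.3 FPKM in parental cells. The groups overlapped, and in each of them library A was the lowest. The log2 difference from parental cells was -0.30 ± 0.40 in PR2 (adjusted p = 0.63, limma) and -0.17 ± 0.40 in PR1 (adjusted p = 0.82, limma). Without the A libraries of all groups, which drops 3 libraries from the fit, PR2 was lower than parental cells by -0.53 ± 0.15 (adjusted p = 0.038, limma). With single libraries left out, this difference was not called and ran from -0.81 without parental A (adjusted p = 0.074) to -0.026 without PR2 A (adjusted p = 0.97).

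PRSS22 encodes a secreted tryptase of airway epithelium that is known to activate urokinase. Its levels were 7.80, 35.6 and 37.3 FPKM in PR2 libraries A, B and C, 28.2, 59.1 and 44.4 FPKM in PR1, and 28.5, 60.8 and 47.7 FPKM in parental cells. The groups overlapped, and library A was again the lowest of each. PR2 differed by -0.90 ± 0.53 from PR1 (adjusted p = 0.27, limma) and by -0.95 ± 0.53 from parental cells (adjusted p = 0.23, limma), while PR1 differed from parental cells by -0.05 ± 0.53. With the letter as a block PRSS22 passed in PR2 against PR1 at an adjusted p of 0.033. The same fit gave 0.024 in PR2 against parental cells, where the letters were not counted as pairs. Without PR2 A the difference was -0.20 from PR1 (adjusted p = 0.73) and -0.25 from parental cells (adjusted p = 0.65), and without the A libraries of all groups it was -0.48 (adjusted p = 0.13) and -0.55 (adjusted p = 0.073). Within letters A, B and C, PR2 lay below PR1 by -1.73, -0.72 and -0.24.

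PRSS23 encodes a secreted protease that is expressed in many tissues. It was at 248, 412 and 504 FPKM in PR2 libraries A, B and C, at 181, 219 and 229 FPKM in PR1, and at 256, 193 and 179 FPKM in parental cells. Every PR2 library lay above every PR1 library, but PR2 library A lay below parental library A. PRSS23 averaged 388 ± 129 FPKM in PR2, 209.8 ± 25.1 FPKM in PR1 and 209.4 ± 41.2 FPKM in parental cells (SD, n = 3 each). PR2 was higher than PR1 by 0.83 ± 0.26 (adjusted p = 0.047, limma) and higher than parental cells by 0.84 ± 0.26 (adjusted p = 0.039, limma), and PR1 differed from parental cells by 0.01 ± 0.26 (adjusted p = 0.98). Within letters A, B and C, PR2 differed from parental cells by -0.05, 1.09 and 1.49. Without the A libraries of all groups PRSS23 rose by 1.02 over PR1 (adjusted p = 0.0050, limma) and by 1.29 over parental cells (adjusted p = 0.0013, limma). The call against parental cells was lost when parental B (0.79, adjusted p = 0.12), parental C (0.74, 0.12), PR2 B (0.77, 0.11) or PR2 C (0.63, 0.15) was left out. No filter (adjusted p = 0.063, limma), upper-quartile scaling (0.056) and only these groups in the fit (0.067) lost it too. It held under 9 of 16 alternatives. The call against PR1 was lost without PR1 A (0.73, adjusted p = 0.13), PR1 B (0.87, 0.091), PR1 C (0.90, 0.083), PR2 B (0.76, 0.14) or PR2 C (0.61, 0.17), so that among these libraries only PR2 A could be left out without losing it. No filter (adjusted p = 0.080, limma), a filter of 5 FPKM (0.052), upper-quartile scaling (0.058) and only these groups in the fit (0.068) lost it too. It held under 7 of 16 alternatives. FZD4, a Wnt receptor gene that overlaps PRSS23 in RefSeq, had 6.68 to 13.9 FPKM over the 9 libraries and was called in no comparison.

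HPN and TMPRSS11E were low or listed at 0. HPN, the gene of hepsin, a protease best known from liver and prostate, had 0, 0.0531 and 0 FPKM in PR2 libraries A, B and C, 0.0416, 0.183 and 0.168 FPKM in PR1, and 0.0198, 0.0806 and 0.0272 FPKM in parental cells. It was not tested, and in a fit without the filter it was called in no comparison, with its lowest adjusted p, 0.089, in PR2 against PR1 (limma). TMPRSS11E, a transmembrane protease of squamous epithelia, was listed at 0 in all 9 libraries. Such a 0 may stand for a value that could not be estimated, since YTHDC1, the neighbour of TMPRSS11E in RefSeq and a gene that most cells express, was also listed at 0 in all 9.

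SPINT1 encodes HAI-1, the membrane-bound partner that inhibits matriptase. Its level was 76.4, 106 and 97.2 FPKM in PR2 libraries A, B and C, 128, 165 and 137 FPKM in PR1, and 120, 154 and 142 FPKM in parental cells. All PR2 libraries lay below all libraries of the other groups, while PR1 and parental cells overlapped. SPINT1 averaged 93.1 ± 15.0 FPKM in PR2, 143 ± 19.5 FPKM in PR1 and 138 ± 17.2 FPKM in parental cells (SD, n = 3 each). PR2 was lower than PR1 by -0.62 ± 0.18 (adjusted p = 0.034, limma) and lower than parental cells by -0.57 ± 0.18 (adjusted p = 0.042, limma), and PR1 differed from parental cells by 0.05 ± 0.18 (adjusted p = 0.88). Within letters A, B and C the difference between PR2 and parental cells was -0.64, -0.54 and -0.54. Against parental cells the call was lost without parental B (-0.49, adjusted p = 0.14), parental C (-0.55, 0.11), PR2 A (-0.44, 0.12), PR2 B (-0.67, 0.053) or PR2 C (-0.61, 0.091). Quantile normalization (-0.44, adjusted p = 0.15, limma), upper-quartile scaling (-0.58, 0.070) and only these groups in the fit (-0.57, 0.058) lost it too. It held under 8 of 16 alternatives. Against PR1 it was lost without PR1 B (-0.52, adjusted p = 0.12), PR1 C (-0.65, 0.073), PR2 A (-0.49, 0.092), PR2 B (-0.72, 0.051) or PR2 C (-0.66, 0.080). Quantile normalization (-0.57, adjusted p = 0.075, limma) and upper-quartile scaling (-0.60, 0.069) also lost the call against PR1, which held under 9 of 16 alternatives. The sign was the same in every one of these fits.

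SPINT2 encodes HAI-2, which inhibits prostasin and matriptase. It stood at 299, 399 and 375 FPKM in PR2 libraries A, B and C, at 478, 432 and 350 FPKM in PR1, and at 339, 414 and 376 FPKM in parental cells. All groups overlapped. PR2 differed from PR1 by -0.23 (interval -0.63 to 0.17, adjusted p = 0.41) and from parental cells by -0.08 (interval -0.48 to 0.32, adjusted p = 0.79) by limma, and PR1 from parental cells by 0.15 (interval -0.25 to 0.55). No alternative called SPINT2 in any comparison.

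**Figure D2:**
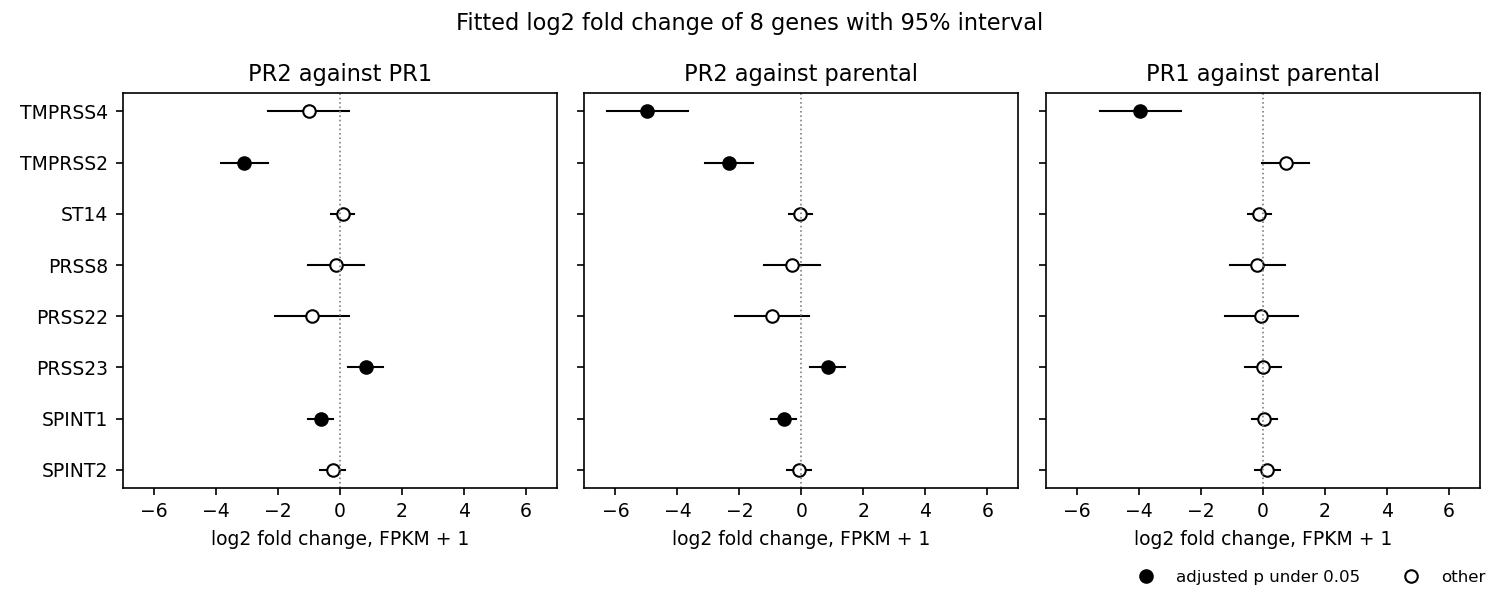
Log2 fold changes on the log2(FPKM + 1) scale for the 8 tested genes in PR2 against PR1, PR2 against parental cells and PR1 against parental cells, with 95% confidence intervals from limma and filled points for adjusted p under 0.05. TMPRSS4 lies furthest below 0 in both comparisons with parental cells, TMPRSS2 lies furthest below 0 in PR2 against PR1, and the intervals of ST14 and SPINT2 cross 0 in every panel.

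By mean FPKM, the order of the genes in PR2 was PRSS23, SPINT2, ST14, SPINT1, PRSS8, PRSS22, TMPRSS4, TMPRSS2, HPN. The ranges of PRSS23 and SPINT2, of SPINT2 and ST14, of PRSS8 and PRSS22, and of PRSS22 and TMPRSS4 overlapped. In PR1 the order was SPINT2, ST14, PRSS23, SPINT1, PRSS8, PRSS22, TMPRSS2, TMPRSS4, HPN, and neighbours overlapped only for PRSS8 with PRSS22 and TMPRSS2 with TMPRSS4. In parental cells it was SPINT2, ST14, PRSS23, TMPRSS4, SPINT1, PRSS8, PRSS22, TMPRSS2, HPN, with overlap between SPINT2 and ST14, PRSS23 and TMPRSS4, TMPRSS4 and SPINT1, and PRSS8 and PRSS22. By group mean, TMPRSS4 lay above 31.2% of the rows tested in PR2 and 48.4% in PR1, against 95.3% in parental cells. TMPRSS2 lay above 1.57% of rows in PR2, 50.8% in PR1 and 34.1% in parental cells.

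The balance of proteases to inhibitors was described from sums of FPKM per library, with no test. TMPRSS4 made up 0.147%, 0.569% and 1.11% of the protease FPKM in PR2 libraries A, B and C, 0.802%, 1.84% and 1.90% in PR1, and 14.8%, 20.6% and 22.0% in parental cells. ST14 exceeded SPINT1 by 3.76, 3.50 and 3.56 times in PR2, by 2.32, 1.86 and 2.46 times in PR1, and by 3.06, 2.37 and 2.06 times in parental cells. Every PR2 library thus had a higher ST14 to SPINT1 ratio than every library of the other groups. ST14 overlapped between all groups, so this ratio largely restates the lower SPINT1 values in PR2, whose calls were fragile. The summed proteases over the summed inhibitors stood at 1.54, 1.77 and 2.03 in PR2, at 0.926, 1.15 and 1.43 in PR1, and at 1.76, 1.59 and 1.53 in parental cells, so that PR1 was the lowest group and PR2 overlapped with parental cells. By mean, PRSS23 and ST14 are the largest terms of the protease sum in every group.

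**Figure D3:**
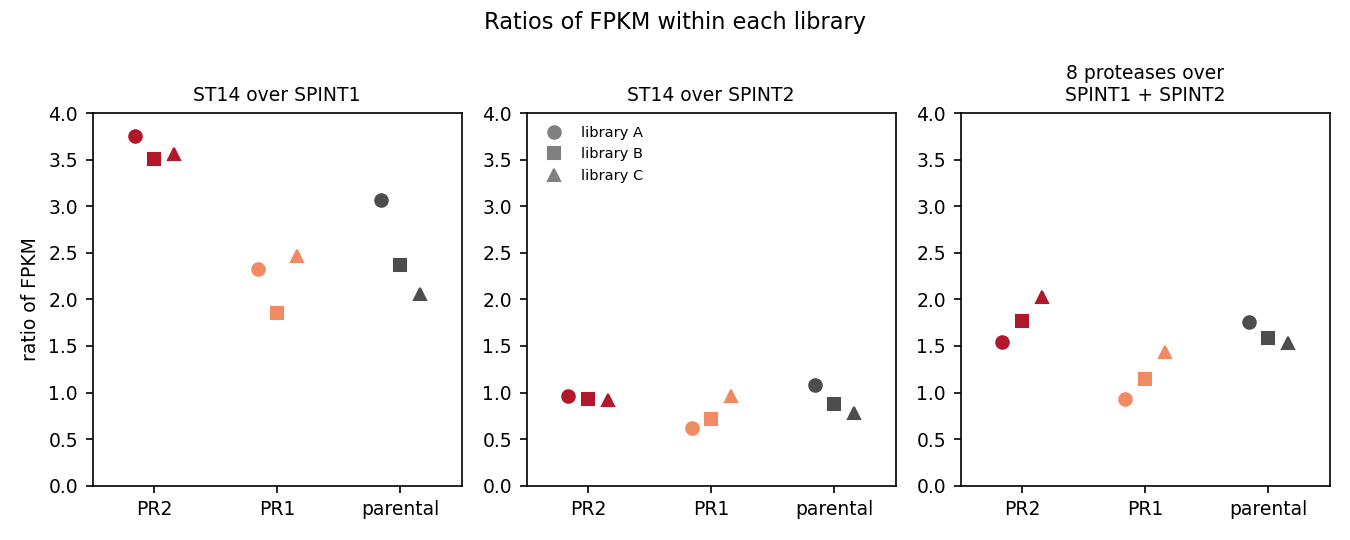
Ratios of FPKM within each library for PR2, PR1 and parental cells from left to right, in panels for ST14 over SPINT1, ST14 over SPINT2, and the summed proteases over both inhibitors, with the library letter shown by its symbol. ST14 over SPINT1 lies between 3.50 and 3.76 in PR2 and at or under 3.06 elsewhere, while ST14 over SPINT2 overlaps between the groups.

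Library A stood apart for several of these genes. PRSS8, TMPRSS2, TMPRSS4, PRSS22 and SPINT1, 5 of the 8 tested, were lowest in library A in all 3 groups, as were 989 of the 12011 rows tested, or 8.23%. TMPRSS4 in library A was 0.108 times the mean of B and C in PR2, 0.348 times in PR1 and 0.664 times in parental cells. PRSS22 in A was 0.214 times that mean in PR2, 0.545 times in PR1 and 0.525 times in parental cells. For PRSS23 the direction differed, with 0.542 times in PR2 and 0.810 times in PR1 but 1.38 times in parental cells. The labels give the letters no meaning, and the part of the letter in the differences between groups is given beside each of the 8 genes whose call changed when letters were fitted as blocks or when A libraries were dropped.

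**Figure D4:**
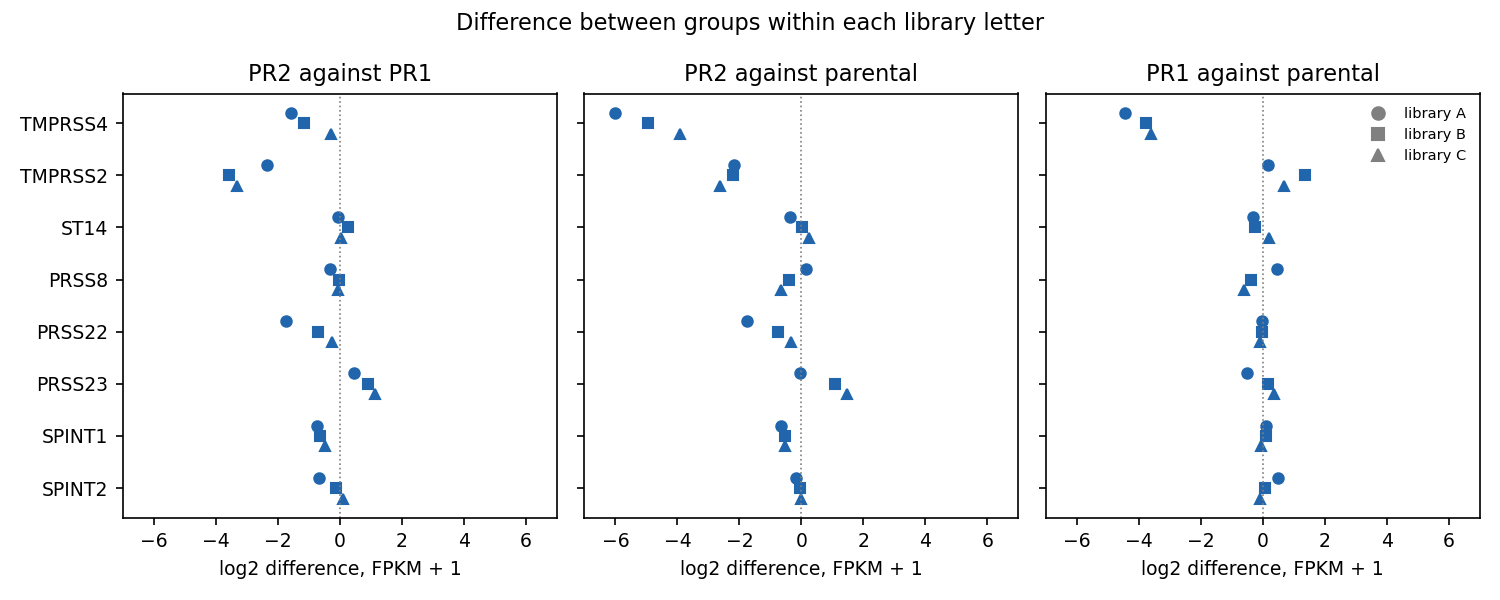
Log2(FPKM + 1) differences between groups within each library letter for the 8 tested genes, without replicates inside a letter. TMPRSS4 is lower in both derivatives than in parental cells in each letter, SPINT1 is lower in PR2 in each letter, and PRSS23 in PR2 against parental cells is -0.05 in letter A and over 1 in letters B and C.

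The related genes were taken as lists. Of all rows tested, 23.4% were called in PR2 against parental cells, 15.5% in PR1 against parental cells and 19.9% in PR2 against PR1. Of 12 other transmembrane serine proteases, 2 passed the filter. TMPRSS13, a protease of stratified epithelia, was the one called, and it fell in PR2 against parental cells (27.8 ± 7.08 against 45.8 ± 7.55 FPKM, log2 fold change -0.72, adjusted p = 0.032, limma). That call was lost under 7 of 16 alternatives, among them without the A libraries of all groups (-0.42, adjusted p = 0.12) and without parental A (-0.65, adjusted p = 0.079), parental B (-0.65, 0.11) or PR2 A (-0.49, 0.080). TMPRSS9 was called in no comparison. Of 8 other trypsin-like proteases of the PRSS series, 3 were tested. PRSS21, the testis protease testisin, fell in PR2 against parental cells by -1.26 ± 0.34 (7.02 ± 2.27 against 18.7 ± 6.99 FPKM, adjusted p = 0.022, limma). It was not called without parental B (-1.07, adjusted p = 0.089), parental C (-1.12, 0.081), PR2 A (-1.02, 0.064) or PR2 C (-1.32, 0.053). PRSS27, pancreasin, fell in PR2 against PR1 by -1.10 ± 0.27 (0.689 ± 0.311 against 2.65 ± 0.988 FPKM, adjusted p = 0.017, limma), and lost its call without PR1 B (-0.89, adjusted p = 0.060) or PR2 C (-1.10, 0.051). PRSS12, neurotrypsin, rose in PR1 by 0.99 ± 0.15 (5.63 ± 0.552 against 2.37 ± 0.564 FPKM, adjusted p = 0.0022, limma). In PR2 it rose by 0.57 (adjusted p = 0.022), a call lost when any library other than parental A was left out (0.46 to 0.61, adjusted p up to 0.083). TMPRSS13 and PRSS12 are named because they were called, after their values were seen.

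Among 8 other inhibitors of trypsin-like proteases, 4 were tested, and 2 rose in PR2 against parental cells, 3 rose in PR2 against PR1 and 1 fell in PR1 against parental cells. Of all rows, 13.6% and 11.0% were called higher in the first pair of comparisons, and 7.98% were called lower in PR1 against parental cells. TFPI2, a Kunitz-type inhibitor of the extracellular matrix, rose in PR2 by 2.41 over PR1 and by 2.71 over parental cells (193 ± 107 FPKM in PR2, 30.9 ± 2.50 FPKM in PR1 and 26.5 ± 11.9 FPKM in parental cells; adjusted p = 0.0054 and 0.0021, limma). SERPINE2, the thrombin and urokinase inhibitor nexin-1, rose by 1.35 and 1.38 in the same comparisons (adjusted p = 0.0082 and 0.0056, limma). SERPINE2 is named because so few were called, after its values were seen. SERPINA1, alpha-1-antitrypsin, was at 16.2, 53.2 and 54.6 FPKM in PR2, 3.46, 3.73 and 3.05 FPKM in PR1, and 57.4, 76.7 and 97.0 FPKM in parental cells. It fell in PR1 against parental cells by -4.11 ± 0.40 (adjusted p = 0.00016, limma) and was higher in PR2 than in PR1 by 3.08 ± 0.40 (adjusted p = 0.00066, limma). The calls of these 3 genes held under all alternatives. SPINT3 and SPINT4 were listed at 0 in all 9 libraries.

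The list of substrates, their receptors and related surface proteins held 17 genes, 13 of them tested. In PR2 against parental cells 6 rose and none fell, where 13.6% of all rows were called higher and 9.83% lower. In PR1 against parental cells 4 rose and 1 fell, where the shares of all rows were 7.56% and 7.98%. In PR2 against PR1 2 rose and none fell, where they were 11.0% and 8.92%. Their median log2 fold change was 0.47, 0.36 and 0.25 in these comparisons. The laminin chain genes LAMA3 and LAMB3, which encode basement membrane proteins, were among those that rose in each derivative. LAMA3 was at 34.8, 25.9 and 29.4 FPKM in PR2 libraries A, B and C, at 27.3, 11.5 and 14.03 FPKM in PR1, and at 8.07, 4.03 and 4.61 FPKM in parental cells. It rose by 2.28 ± 0.31 in PR2 (adjusted p = 0.00065, limma) and by 1.46 ± 0.31 in PR1 (adjusted p = 0.012, limma), the PR1 call being lost without parental B (1.29, adjusted p = 0.051). LAMB3 averaged 109 ± 2.66 FPKM in PR2, 90.9 ± 16.9 FPKM in PR1 and 33.4 ± 11.2 FPKM in parental cells, with rises of 1.73 ± 0.23 in PR2 (adjusted p = 0.00055, limma) and 1.46 ± 0.23 in PR1 (adjusted p = 0.0025, limma). F2RL1, the receptor PAR2 that trypsin-like proteases activate, rose in PR2 by 0.71 ± 0.16 (51.2 ± 7.70 against 30.7 ± 2.60 FPKM, adjusted p = 0.010, limma) and in PR1 by 1.02 ± 0.16 (63.3 ± 7.07 FPKM, adjusted p = 0.0025, limma). Without PR2 C its adjusted p in PR2 was 0.051, at 0.63. PLAUR, the urokinase receptor, rose in PR2 by 1.70 and in PR1 by 0.93 (73.3 ± 2.13 FPKM in PR2, 44.0 ± 12.7 FPKM in PR1 and 22.6 ± 6.85 FPKM in parental cells; adjusted p = 0.00068 and 0.024, limma). In PR1 its call was lost without parental B (0.81, adjusted p = 0.090), parental C (0.83, 0.086), PR1 A (0.72, 0.064) or PR1 C (1.01, 0.052). The 2 genes that rose in PR2 against PR1 were PLAUR (0.76, adjusted p = 0.046) and the junction gene CLDN7 (0.74, adjusted p = 0.018, limma), and these calls were lost under 7 and 4 of 16 alternatives. PLAUR was not called without PR1 B, PR1 C or any PR2 library (0.61 to 0.78, adjusted p up to 0.14), nor CLDN7 without PR1 B, PR1 C, PR2 B or PR2 C (0.71 to 0.76, adjusted p up to 0.058). The gene that fell in PR1 was MST1, a ligand precursor cut by matriptase and hepsin (1.03 ± 0.353 against 2.11 ± 0.495 FPKM, -0.62, adjusted p = 0.045, limma), called under 5 of 15 alternatives. LAMB3, F2RL1, PLAUR, CLDN7 and MST1 are named after their values were seen. HGF, whose precursor matriptase and hepsin can activate, was listed at 0 in all 9 libraries, and SCNN1A lay in a row joined with another gene.

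**Figure D5:**
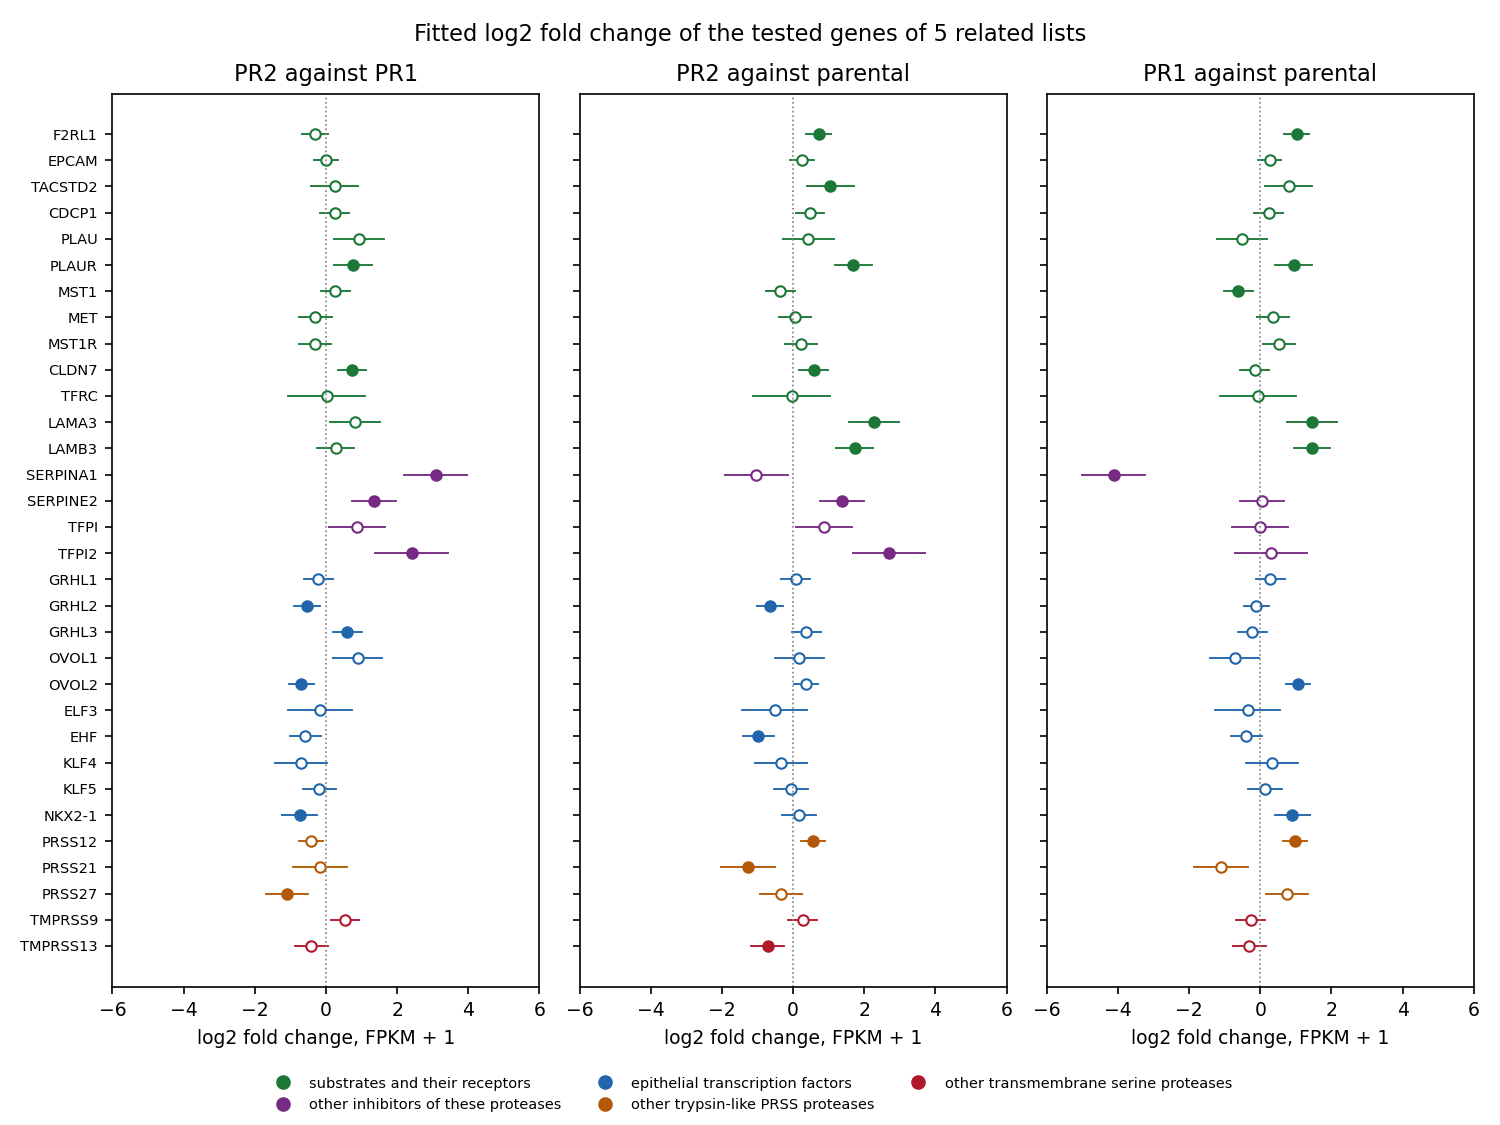
Log2 fold changes on the log2(FPKM + 1) scale, with 95% confidence intervals from limma, of the tested genes of 5 lists in PR2 against PR1, PR2 against parental cells and PR1 against parental cells, coloured by list and filled where the adjusted p was under 0.05. In PR2 against parental cells the filled points of the substrate list (6) and of the other inhibitors (2) lie above 0, and those of the transcription factors (2) lie below 0.

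Of 10 transcription factors of epithelial state, all were tested. In PR2 against parental cells 2 fell and none rose, in PR1 against parental cells 2 rose and none fell, and in PR2 against PR1 3 fell and 1 rose. Of all rows, 23.4%, 15.5% and 19.9% were called in these comparisons, so that the counts in both derivatives against parental cells were near the background. OVOL2, a repressor of mesenchymal genes, rose in PR1 by 1.06 ± 0.16 (20.0 ± 3.91 against 8.96 ± 0.476 FPKM, adjusted p = 0.0018, limma). In PR2 the called ones, named after their values were seen, were EHF (25.3 ± 5.81 against 50.1 ± 3.65 FPKM, -0.98, adjusted p = 0.0052, limma) and GRHL2 (13.8 ± 0.536 against 22.3 ± 3.20 FPKM, -0.64, adjusted p = 0.016, limma). EHF is an ETS factor of epithelia, and GRHL2 is a factor that keeps epithelial junction genes on. GRHL2 was not called without parental C (-0.54, adjusted p = 0.059) or PR2 B (-0.63, 0.056). NKX2-1, the lung lineage factor, was the other that rose in PR1, by 0.90 (adjusted p = 0.019, limma), and lost that call without parental B (0.94, adjusted p = 0.051), parental C (0.74, 0.073) or PR1 B (0.70, 0.063). In PR2 against PR1 the genes that fell were NKX2-1 (-0.74), OVOL2 (-0.70) and GRHL2 (-0.54), and GRHL3 rose by 0.60 (adjusted p = 0.038, 0.012, 0.042 and 0.042, limma). These calls held under 7 of 16 (NKX2-1), 14 of 16 (OVOL2), 10 of 16 (GRHL2) and 5 of 15 (GRHL3) alternatives. GRHL3 reached 1 FPKM in all 3 PR2 libraries (1.75, 1.09 and 1.13) and in parental A (1.08), but in no PR1 library (0.373 to 0.631). It thus passed the filter only through PR2, which favoured a rise there. NKX2-1 was lost without PR1 B, PR1 C or any PR2 library (-0.54 to -0.83, adjusted p up to 0.12), GRHL2 without the same libraries (-0.44 to -0.56, adjusted p up to 0.13), and GRHL3 without any library of either group (0.47 to 0.67, adjusted p up to 0.11). OVOL2 was lost without PR1 B (-0.57, adjusted p = 0.050). Without the A libraries of all groups NKX2-1 (-0.76, adjusted p = 0.060), OVOL2 (-0.66, 0.066) and GRHL3 (0.40, 0.15) were not called. Of the 7 epithelial markers, 1 was called higher and 1 lower in PR2 against parental cells. Of all rows tested, 23.4% were called there, 13.6% higher and 9.83% lower, so this count too was near the background. KRT7 rose by 1.14 (3328 ± 310 against 1526 ± 286 FPKM, adjusted p = 0.0056, limma), and KRT18 fell by 0.82 on the log2 scale (3.46 ± 1.10 against 6.80 ± 1.35 FPKM, adjusted p = 0.035, limma), a call lost under 6 of 16 alternatives. The low level of KRT18 may stand for a row that was not fully estimated, which was not tested. NKX2-1, GRHL3, KRT7 and KRT18 are named because they were called, after their values were seen.

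For each called gene the 3 single-gene rows with the most similar profile were listed, by the root-mean-square difference of centred log2(FPKM + 1) values over the 9 libraries, as a description. The nearest to TMPRSS4 were S100A9 (0.46), DHRS9 (0.56) and LOC102467080 (0.66), where the spread of TMPRSS4 itself was 2.27. S100A9, a calcium-binding protein of myeloid and inflamed epithelial cells, averaged 37.7 ± 32.6 FPKM in PR2, 91.5 ± 47.7 FPKM in PR1 and 1794 ± 639 FPKM in parental cells. The nearest to TMPRSS2 were CHRNA9 (0.19), DNAJC12 (0.39) and NFATC4 (0.44), against a spread of 1.38 for TMPRSS2. CHRNA9, a nicotinic receptor subunit gene, averaged 0.0647 ± 0.0236 FPKM in PR2, 8.61 ± 3.31 FPKM in PR1 and 3.82 ± 0.564 FPKM in parental cells. SPINT1 was nearest to RPS13, KIAA1522 and RPL7A (0.09 each, own spread 0.33), and PRSS23 to CARD6 (0.11), MEX3B (0.14) and LOC100126784 (0.15, own spread 0.49).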

How the data were processed

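RNA was measured in 9 libraries, 3 per group. The authors' deposited table holds FPKM values, made with TopHat2 2.0.14, Cufflinks 2.2.1 and Cuffdiff 2.2.1 on GRCh37/hg19, per the submitters' processing notes. The unit is an inference from the values and from Cufflinks, since the header names none. Gene annotation, strand setting and read number are not given in those sources, so depth is unknown beyond the relative estimate. Library preparation used a TruSeq RNA kit, per the labels' protocols.

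Values were analysed as log2(FPKM + 1) in R 4.3.3, a scale that understates changes of low genes. A row was tested if 3 or more of its 9 values reached 1 FPKM (12011 of 24069). Of all rows, 704 join several genes, and no gene of the set lies in one. limma 3.58.1 was fitted to all 9 libraries, with a mean for each group and an intensity trend. Tests were two-sided, adjusted by Benjamini-Hochberg over all rows tested, with a threshold of 0.05. Confidence intervals are 95%. The procedure was tested on simulated data.

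The members and lists were chosen with earlier results of these data known, and some genes are not reported here. All 10 members are described. From each other list the called genes with the largest rise and the largest fall of at least 1 on the log2 scale are named, and for each called member the 3 nearest profiles. Other genes are said to be named after their values were seen.

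Library letters were checked as pairs by correlating deviations from group means over 12011 rows. For A, B and C the correlations were 0.311, 0.477 and 0.163 in PR1 with parental cells and 0.527, 0.544 and 0.254 in PR2 with PR1. Letters were counted as pairs there, but the main fit left them out in every comparison. Its p-values are therefore unpaired, and the letter enters only in the alternative with the letter as a block. In PR2 with parental cells the correlations were 0.296, 0.417 and 0.014, and the letters were not counted as pairs. The alternatives were pseudocounts of 0.1 and 0.01 FPKM, no filter or 5 FPKM, quantile and upper-quartile scaling, the letter as a block, only the groups compared, no trend, each library left out, and no A libraries. Gene order and promoter windows came from RefSeq (GRCh38.p14), with no coordinates carried between builds.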

Additional observations from a re-analysis of the deposited data

Results flagged for a closer look

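In 3 of 8 genes the difference from parental cells was not the same in the derivatives, tested as PR2 against PR1 with limma. The share called among all rows tested was 19.9% in that comparison. TMPRSS2 differed by -3.08 (adjusted p = 0.00028), lower in all 3 PR2 libraries than in any PR1 library, and held under all 16 alternatives. It passed the filter only through its levels in PR1 and parental cells, so the filter favoured a lower level in PR2. SPINT1 differed by -0.62 (adjusted p = 0.034), also without overlap, and was called under 9 of 16 alternatives. PRSS23 differed by 0.83 (adjusted p = 0.047), higher in all 3 PR2 libraries, and was called under 7 of 16. No cause was tested for any of them.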

How the results depend on the processing

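Over 24 comparisons of 8 genes and 384 alternatives, 322 values kept their direction and side of the threshold, 31 lost a call, 7 gained one and 24 changed sign. No called value changed sign. TMPRSS4 in both derivatives against parental cells, and TMPRSS2 in PR2 in both comparisons, were called throughout. For TMPRSS2 the filter favoured a difference in PR2, as stated above. For SPINT1 and PRSS23 in PR2, adjusted p ranged to 0.15 against parental cells, and to 0.12 and 0.17 against PR1. In PR2 against parental cells 4 of the genes were called, but 2 with upper-quartile scaling, 2 with only these groups in the fit, and 2 to 4 with a library left out. In PR2 against PR1 3 were called, but 1 with upper-quartile scaling, 5 with the letter as a block, and 1 to 2 with a library left out. In PR1 against parental cells 1 was called, but 2 with the block, 2 without the A libraries, and 1 to 2 with a library left out. Over all rows, 1866 (PR1 against parental cells), 2814 (PR2 against parental cells) and 2395 (PR2 against PR1) were called. With a filter of 5 FPKM, which tests fewer rows, these counts were 1207, 1811 and 1573. With the paired block, they were 3088 in PR1 against parental cells and 3789 in PR2 against PR1. With a library left out they ran between 1141 and 1895, 1805 and 2922, and 1420 and 2227. Changes of sign concerned genes not called. With quantile normalization ST14 was 0.010 in PR1 and 0.14 in PR2, and SPINT2 0.12 in PR2, against parental cells. With upper-quartile scaling PRSS23 was -0.019 in PR1. Without the A libraries ST14 in PR2 was 0.14 and SPINT2 in PR1 -0.023. With a library left out, values in PR1 against parental cells ran from -0.68 to 0.090 for PRSS8, -0.056 to 0.13 for SPINT1, -0.35 to 0.23 for PRSS22 and -0.092 to 0.17 for PRSS23. In PR2 against parental cells they ran from -0.14 to 0.078 for ST14 and -0.16 to 0.043 for SPINT2, and in PR2 against PR1 from -0.32 to 0.15 for PRSS8. The cause was not tested. With 3 libraries per group and no read depth, differences of the size seen for ST14 or SPINT2 could not be resolved.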

Other observations

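Genes next to 3 of the members in RefSeq order are given here. MX1, an interferon-induced gene next to TMPRSS2, averaged 6.21 FPKM in PR2, 0.765 FPKM in PR1 and 8.40 FPKM in parental cells, and was lower in PR1 than in parental cells by -2.42 (adjusted p = 4.6e-05, limma), whereas TMPRSS2 was lowest in PR2. MX1 passed the filter through its levels in PR2 and parental cells, which favoured a lower level in PR1. RIPK4, on the other side of TMPRSS2, was called in no comparison. FLYWCH2, next to PRSS22, averaged 19.6 FPKM in PR2, 54.6 FPKM in PR1 and 39.2 FPKM in parental cells, lower in PR2 than in PR1 by -1.42 (adjusted p = 0.00064, limma) and than in parental cells by -0.95 (adjusted p = 0.0044, limma). ZG16B, on the other side of PRSS22, averaged 0.143 FPKM in PR2, 1.69 FPKM in PR1 and 1.89 FPKM in parental cells, lower in PR2 than in PR1 by -1.20 (adjusted p = 0.014, limma) and than in parental cells by -1.28 (adjusted p = 0.0084, limma). Like TMPRSS2, ZG16B passed the filter only through its levels in PR1 and parental cells, so the filter favoured a lower level in PR2. APLP2, next to ST14, averaged 483 FPKM in PR2, 940.0 FPKM in PR1 and 707 FPKM in parental cells, lower in PR2 than in PR1 by -0.95 (adjusted p = 0.0041, limma) and than in parental cells by -0.55 (adjusted p = 0.042, limma), while ST14 itself was not called. ZBTB44, on the other side of ST14, averaged 16.7 FPKM in PR2, 21.8 FPKM in PR1 and 12.9 FPKM in parental cells, and was higher in PR1 than in parental cells by 0.73 (adjusted p = 0.031, limma). These neighbours were chosen by position and named after their values were seen.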
